A study of Danio rerio with 2 samples.

Results

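The genes described here encode the ligands, receptors, inhibitors and target factors of the Wnt, Fgf, Bmp and Notch pathways, measured on 2 Agilent arrays of zebrafish RNA at 3 dpf. They were chosen by name alone, from the families wnt, fzd, dkk, sfrp, axin, fgf, fgfr, spry, bmp, bmpr, nog, notch, delta, jagged, her and hey. Of 12857 genes named on the arrays, 139 matched, and they were read by 244 probes. Of the 139, 5 were set apart, *spryd3*, *spryd4*, *spryd7a*, *spryd7b* and *fgfr1op2*, since they share letters with the sprouty and Fgf receptor genes but belong to other families. The remaining 134 comprised 42 Wnt, 39 Fgf, 23 Bmp and 30 Notch genes.

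In each of these pathways a secreted or membrane-bound ligand binds a receptor and changes transcription in the receiving cell, and the pathways are used again and again in the embryo to pattern tissues and hold progenitor cells. Wnt proteins bind Frizzled receptors and stabilise β-catenin, Fgf proteins activate receptor tyrosine kinases, Bmp proteins activate receptor kinases that phosphorylate Smad factors, and Delta or Jagged ligands on a neighbouring cell release the intracellular part of Notch. Notch then turns on several her and hey genes, whose products repress transcription. In the nervous system this keeps progenitors from all becoming neurons at the same time. Several of the genes below are themselves transcriptional outputs of the pathways and are often used as readouts of their activity. Among them are *axin2*, the sprouty genes and some of the her genes.

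The study compared zebrafish injected with 8 ng of a morpholino (MO), an antisense oligonucleotide, against *miR-132* with zebrafish injected with 8 ng of control MO (Ctrl MO). *MiR-132* is a microRNA enriched in neurons. The MOs were injected into the zygote, the chorion was removed with pronase at 24 hpf, and the embryos were kept in 10% Hanks' solution. Total RNA was extracted at 3 dpf, labelled with Cy3 and hybridised to 1 array per group. The labels give embryos as the tissue and name no strain, and how many embryos contributed to each RNA is not given in the sources used here. An MO lowers its target in all cells that inherit it and is no mutation, and no array measured *miR-132* itself. With 1 array per group there was no replicate, so no test, p-value or replicate error could be given for any gene, and every value below describes these 2 arrays. In RNA of whole embryos, fewer cells that express a gene and less RNA per cell cannot be told apart.

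The arrays were unequal at the dim end. For Ctrl MO, 88.0% of spots passed the scanner's background flag and for *miR-132* MO 80.3%. The lowest intensity that passed was 7.17 and 16.8, respectively, and the SD of 153 negative control spots was 2.98 and 17.2. No spot was saturated. Intensities were set relative to the 75th percentile of their array, 731 for Ctrl MO and 866 for *miR-132* MO, so that a gene with equal relative expression had a raw intensity 1.19 times higher on the *miR-132* MO array. The log2 ratio sets the *miR-132* MO array over the Ctrl MO array after this scaling and is averaged over the probes of a gene, and 0.59 on this scale is 1.5-fold. The intensities given below are the processed values before scaling. Among 26 probes printed on 5 spots each, the median SD of the log2 ratio between spots was 0.10, which covers spot noise within these arrays and nothing of the biology. Marker genes of neurons, neural progenitors, muscle, skin, blood, endothelium and liver were found above background.

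A ratio was obtained for 123 of the 134 pathway genes. For 5 of these (*dkk2*, *fgf6b*, *fgf18b*, *fgf23* and *wnt10a*) no probe was above background on the *miR-132* MO array. The ratio is then a bound set by the dim limit of that array, except in *wnt10a*, where a probe kept its own dim reading. Another 7 genes, *bmp7a*, *fgf7*, *her1*, *her5*, *her7*, *wnt2bb* and *wnt8b*, were above background on neither array. A further 4, *fgf17*, *fzd1*, *her11* and *wnt10b*, were above background on the Ctrl MO array only and so close to the limit of the *miR-132* MO array that no ratio was formed. Thus 111 of the 123 genes had all of their used probes above background on both arrays. The gene table of the reference assembly GRCz12tu holds 20 more names that fit the same families, including *wnt1*, *fzd4*, *jag2a* and *her15.1*, which no probe was matched to and which were not analysed here.

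Across the pathways, 7 of the 123 genes were higher by 1.5-fold or more in *miR-132* morphants than in Ctrl MO embryos, and 4 were lower by as much. Over all 12082 genes with a ratio, 4.0% were higher and 7.9% were lower by the same rule. When all used probes of a gene had to pass, 5 genes were higher (*her12*, *dla*, *dlb*, *heyl* and *fzd5*), against 2.73% of all genes. By this rule 3 were lower (*fgf6a*, *fgf6b* and *fzd3b*), against 6.57% of all genes. Of the genes that passed, all but *dla* and *dlb* had 1 used probe, for which this rule is no stricter. Among the 111 genes with all used probes above background throughout, the counts were 7 higher and 2 lower, against 4.01% and 6.85% of all such genes. The higher genes were *her12*, *dla*, *dlb*, *her3* and *heyl* of the Notch pathway, the Fgf receptor *fgfr3* and the Wnt receptor *fzd5*. The lower genes were the Fgf ligands *fgf6a*, *fgf2* and *fgf6b* and the Wnt receptor *fzd3b*. No Bmp gene passed 1.5-fold in either direction. No pathway gene was 2-fold higher, and *fgf6a* and *fgf2* were more than 2-fold lower, *fgf2* through 1 of its 3 probes only. Over all 12082 genes, 1.0015% were at least 2-fold higher and 3.468% at least 2-fold lower, so these 2 lower genes do not set the pathways apart. The median log2 ratio was 0.26 for the 26 Notch genes, 0.07 for the 38 Wnt genes, 0.02 for the 22 Bmp genes and -0.13 for the 37 Fgf genes, against -0.01 for all genes. The Notch and Wnt medians lay above 0 and the Fgf median lay below 0 under each of the 9 other processings tried. The Wnt median was as low as 0.0043, with the brightest probe of each gene, whereas the lowest Notch median was 0.23. The Bmp median changed sign among the processings.

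**Figure D1:**
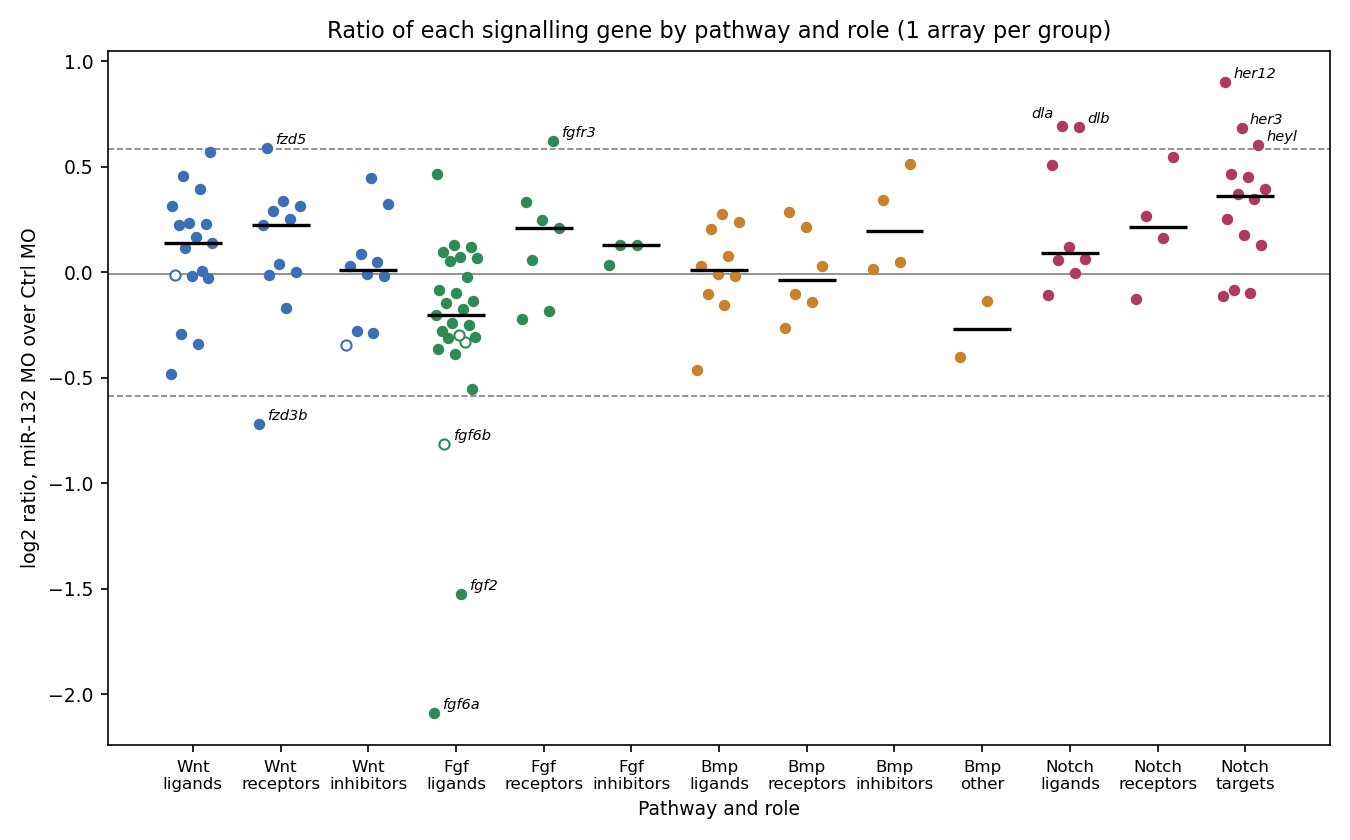
Log2 ratio, *miR-132* morphants over Ctrl MO (vertical axis), for each of the 123 genes, by pathway and role (horizontal axis). A point is a gene, and an open point is a gene with no probe above background on the *miR-132* MO array. Black bars are medians, dashed lines mark 1.5-fold and the grey line is the median of all genes. Of the 14 her and hey genes, shown as Notch targets by name alone, 11 lie above 0. Of the 27 Fgf ligands, 20 lie below 0. Over all genes, 48.9% lie above 0.

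The Notch pathway held 5 of the 7 higher genes and none of the 4 lower genes. The 5 made up 19.2% of its 26 genes with a ratio, where 4.0% of all genes were higher and 7.9% lower. Of these 26 genes, 20 lay above 0 and 6 below, where 48.9% of all genes lay above 0. The 8 Notch ligands split. The delta genes *dla* and *dlb* encode Notch ligands that nascent neurons present to their neighbours. Intensity on the probes of *dla* went from 496 in Ctrl MO to 944 in *miR-132* morphants and from 161 to 310, and the ratios of both probes, 0.68 and 0.70, were close to each other. Intensity on the probes of *dlb* went from 563 to 1154 and from 184 to 327, with ratios of 0.79 and 0.59. Both genes were thus past 1.5-fold on every probe, with mean ratios of 0.69 each, or 1.62-fold and 1.61-fold. The third neural delta, *dld*, read 20398 and 22438, a ratio of -0.11, and *dlc*, a delta best known from the segmentation clock, read 429 and 521 on its brighter probe, with a mean ratio of 0.06. The endothelial ligand *dll4*, which restrains vessel sprouting, went from 200.3 to 247, a ratio of 0.06. On these probes the deltas did not move as one, although *dld* and *dll4* rest on 1 probe each.

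Among the Jagged ligands, *jag1a* had the highest ratio, 0.51, which is 1.42-fold. Its 3 probes went from 124 to 208, from 110 to 214 and from 18.5 to 27.1, with ratios between 0.31 and 0.72. Its duplicate *jag1b* read 1889 and 2144 on the brightest of its probes, and its mean ratio was -0.0041. The ratio of *jag2b* was 0.12, from intensities of 745 and 960.

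Of the 4 Notch receptors, none passed 1.5-fold. For *notch1a*, which carries much of the Notch signal in the embryonic nervous system, the brighter probe went from 733 to 1045 and the dimmer from 18.8 to 39.5, with ratios of 0.27 and 0.82. The mean, 0.55, lay just under 1.5-fold and rests on the dimmer probe. The other copy, *notch1b*, read 89.1 and 133 on its brightest probe, with ratios of 0.20 to 0.34 over 3 probes. The brightest probe of *notch2* read 1423 and 1945, and its mean ratio was 0.16. The probes of *notch3*, a receptor of mural cells and neural progenitors, went opposite ways, from 1012 to 1489 on one and from 24.1 to 19.3 on the other, with ratios of 0.31 and -0.57.

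The her and hey genes, transcriptional repressors of the Hairy/Enhancer of split kind, had the highest median of any role, 0.36 over 14 genes, and it lay between 0.25 and 0.43 under the other processings. Of the 14, 3 were at least 1.5-fold higher, against 4.0% of all genes. The single probe of *her12* went from 91.6 to 203, a ratio of 0.90 or 1.87-fold, which was the largest increase among the pathway genes. Both probes of *her3* read higher, from 96.3 to 169 and from 34.7 to 71.5, with ratios of 0.57 and 0.80. The her and hey genes were counted as Notch targets by name alone. In the zebrafish embryo, *her3* is known as a gene that Notch signalling represses. The probe of *heyl*, known in mouse from vascular smooth muscle, went from 86.4 to 155, a ratio of 0.60. Thus *her12* and *heyl* each rest on 1 probe. With normexp background correction, *dla*, *her3* and *heyl* had ratios of 0.46, 0.23 and 0.47 and no longer passed 1.5-fold, whereas *dlb* and *her12* did.

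Further her genes read higher without passing 1.5-fold. The her4 genes are direct Notch targets in neural progenitors. Intensity of *her4.1* went from 1455 to 2380 on the brighter probe and the ratios of both probes were 0.46 and 0.43. The ratios of *her4.4* and *her4.5* were 0.35 and 0.13. In the gene order of GRCz12tu, *her12*, *her4.1*, *her4.4* and *her4.5* stand in a row with no more than 1 other gene between neighbours. The ratios along this row were 0.90, 0.45, 0.35 and 0.13. Copies of her4 are near-identical, so a probe may read more than 1 of them, and *her4.2* and *her4.3* were not named on the arrays. The ratios of *her13*, *her8a*, *her8.2* and *her2* were 0.46, 0.39, 0.37 and 0.25.

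The remaining her and hey genes lay near 0. The genes *her6* and *her9*, related to mammalian Hes1, read 2247 and 2374 (brighter probe of *her6*) and 5808 and 6440 (*her9*), with ratios of -0.08 and -0.10. For *hey2*, a factor of arterial identity and of the heart, the brighter probe read 276 and 282 and the mean ratio was -0.11. The 5 probes of *hey1* gave ratios from -0.18 to 0.41, with 3904 and 4367 on the brightest, and their mean was 0.17. The segmentation clock genes *her1* and *her7*, and the midbrain-hindbrain boundary gene *her5*, were above background on neither array, and their intensities were at most 4.97. At 3 dpf the pattern across the family was therefore uneven, with *her12*, *her3* and *heyl* at one end and *her6*, *her9* and *hey2* at the other. The order depended on the processing. With normexp background correction, *her3*, *her9* and *her6* had 0.23, 0.15 and 0.03, whereas *her12*, *heyl* and *hey2* had 0.64, 0.47 and -0.19.

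**Figure D2:**
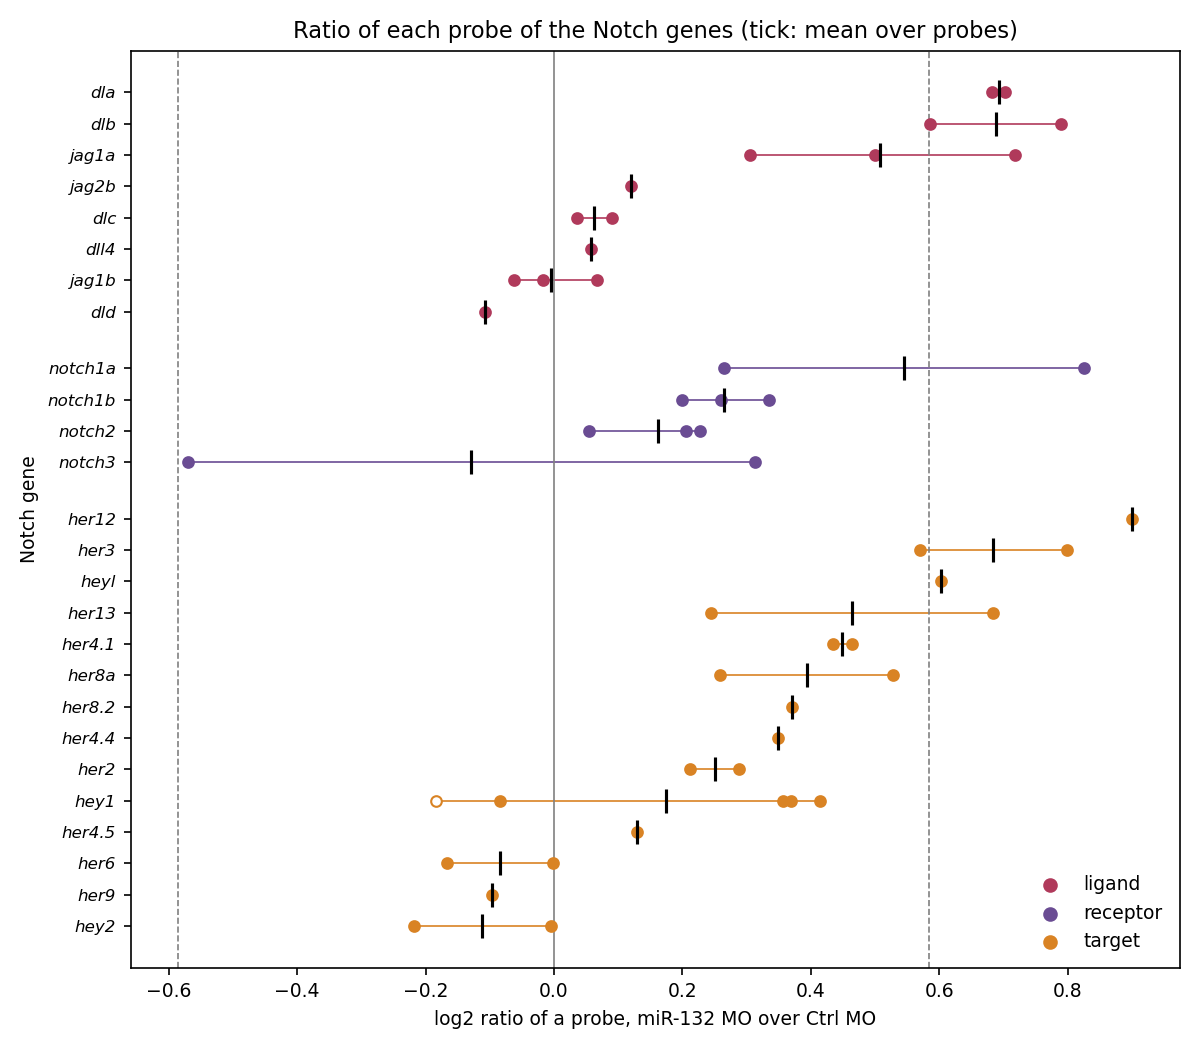
Log2 ratio of each probe (horizontal axis) for the 26 Notch genes with a ratio (vertical axis), coloured by role. Black ticks are the mean over probes, dashed lines mark 1.5-fold and an open point is a probe below background on the *miR-132* MO array; all probes of *dla* and *dlb* lie past 1.5-fold, whereas the probes of *notch3* and *hey1* lie on both sides of 0.

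Of 25 genes listed with the Notch pathway outside the name families, 3 were at least 1.5-fold higher and none was lower. Of the 25, 21 lay above 0 and the median ratio was 0.20. Over all genes the shares were 4.0% higher and 48.9% above 0. Of the 3 higher genes, *neurog1* and *hes6* are factors of neuronal differentiation and no parts of the pathway. The listed genes of all 4 pathways also leaned above 0, with 69 of 102 above it and a median of 0.13. The proneural factor *neurog1*, which drives delta expression in nascent neurons, went from 303 to 619 and from 173 to 404 on its probes, a mean ratio of 0.88. The ratio of *hes6*, known in mouse and frog to promote neuronal differentiation, was 0.90, with probes at 0.56 and 1.24. Intensity of *nrarpb*, a Notch target that feeds back on the receptor, was higher on all 5 probes, from 293 to 499 on the brightest, with ratios between 0.27 and 0.89. Its duplicate *nrarpa* had a ratio of 0.07. The ratios of *rbpja* and *rbpjb*, the DNA-binding partners of Notch, were 0.20 and 0.41. Since these genes were listed with earlier results of the same arrays known, they add no independent support.

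Markers of neural progenitors read somewhat higher on the same array. Of 5 measured (*sox2*, *sox3*, *sox19a*, *fabp7a* and *gfap*), 4 lay above 0, their ratios ran from -0.06 for *sox2* to 0.45 for *gfap*, and none passed 1.5-fold. Their summed level, in multiples of the 75th percentile, was 77.2 in Ctrl MO embryos and 85.2 in *miR-132* morphants, and all were above background on both arrays. The 4 neuron markers *elavl3*, *elavl4*, *snap25a* and *stxbp1a* lay between -0.34 and 0.10, with summed levels of 18.5 and 17.5. The part of either cell population in the Notch ratios was not tested.

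**Figure D3:**
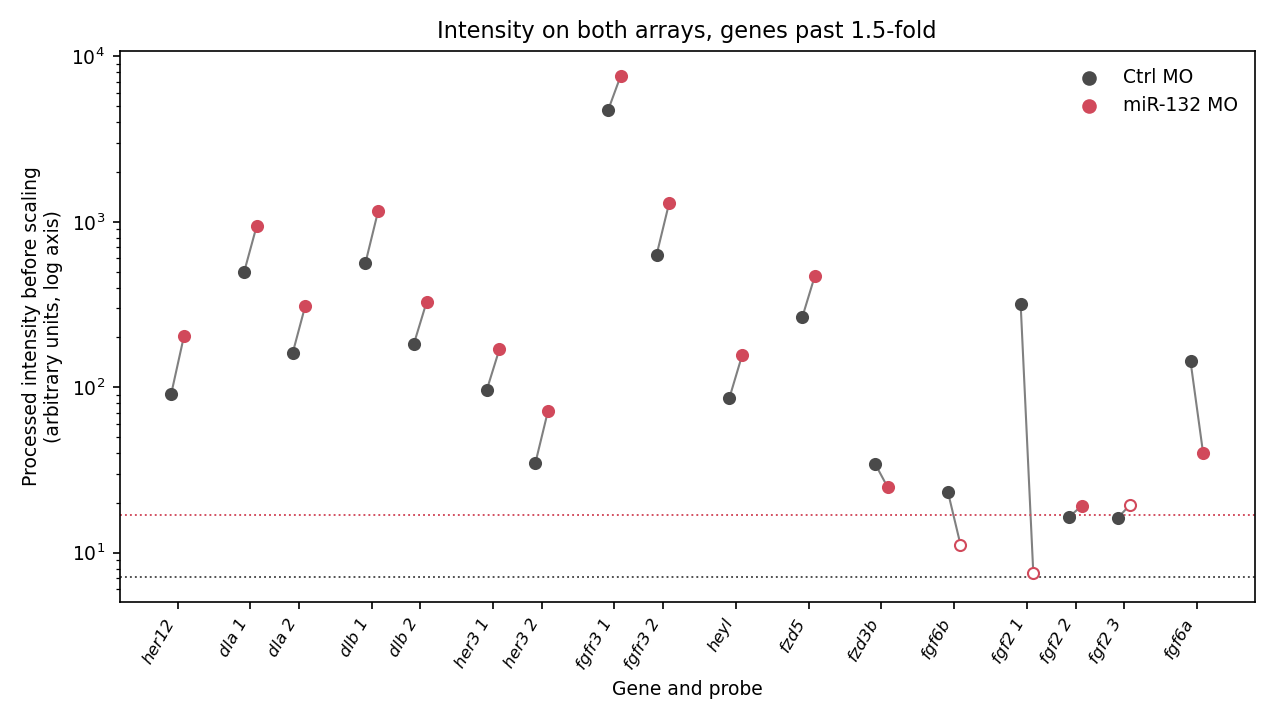
Processed intensity before scaling (vertical axis, log scale, arbitrary units) on the Ctrl MO array (grey) and the *miR-132* MO array (red) for each probe of the 11 genes past 1.5-fold (horizontal axis). Open circles are readings below background and dotted lines are the lowest intensity above background on each array; the 11 probes of the higher genes all read above background on both arrays, whereas 1 of 3 *fgf2* probes carries the whole difference of that gene.

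The Fgf pathway was divided between ligands and receptors. Of 27 Fgf ligands with a ratio, 20 lay below 0 and 7 above, where 48.9% of all genes lay above 0. The median ratio was -0.20, between -0.24 and -0.11 under the other processings. The ligands *fgf6b*, *fgf18b* and *fgf23* are bounds, which by the rule for dim readings could only lie below 0. With only probes above background on both arrays, 17 of 24 ligands lay below 0 and the median was -0.14. The lowest was *fgf6a*, whose single probe went from 143 in Ctrl MO to 39.8 in *miR-132* morphants while above background on both arrays, a ratio of -2.09 or 4.26-fold lower. With normexp background correction this ratio was -1.29. Its duplicate *fgf6b* read 23.4 in Ctrl MO embryos and 11.2, not above background, in *miR-132* morphants. Set to the dim limit of that array, *fgf6b* was 1.76-fold lower, a ratio of -0.81. With normexp background correction its ratio was -0.37. Both genes are counterparts of mammalian Fgf6, a ligand known from skeletal muscle. The muscle markers *ckma*, *myhz2* and *actc1b* had ratios of 0.40, -0.24 and -0.45 and summed levels of 359 and 299.7, and their part in the fgf6 values was not tested.

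The value of *fgf2*, a ligand that acts on endothelium and neural progenitors, depended on the probe. One probe went from 317 to 7.55, not above background, a bound of -4.57 on the log2 scale. The other 2 read 16.5 and 19.2, and 16.2 and 19.5, with ratios of -0.02 and 0.02. These dim probes lay near the limit of detection of the *miR-132* MO array. The mean of the 3 was 2.88-fold lower, but with probes above background on both arrays only, the ratio was -0.02. The *fgf2* difference thus rests on 1 probe.

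The other Fgf ligands stayed within 1.5-fold. Early patterning ligands gave small ratios. For *fgf3*, the probes read 108 and 108, and 106 and 105, with a mean ratio of -0.25. For *fgf8a*, the organiser signal of the midbrain-hindbrain boundary, the brighter probe read 195 and 267 and the mean ratio was 0.07, and its duplicate *fgf8b* had -0.17. For *fgf10a* and *fgf24*, ligands of the developing fin, the brighter or only probes read 298 and 297, and 438 and 555, with mean ratios of -0.20 and 0.09. The 6 intracellular family members (*fgf11a*, *fgf12a*, *fgf12b*, *fgf13a*, *fgf13b* and *fgf14*), whose mammalian counterparts bind sodium channels, lay between -0.55 for *fgf11a* and 0.13 for *fgf13b*. Endocrine ligands differed among themselves, with *fgf21* at 0.46, *fgf19* at -0.39 and *fgf23* at a bound of -0.33.

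The Fgf receptors with a kinase domain all lay above 0. The highest was *fgfr3*, a receptor of cartilage and of neural progenitors, which went from 4727 to 7627 and from 633 to 1306 on its probes, with ratios of 0.44 and 0.80 and a mean of 0.62, or 1.54-fold. The brightest probes of *fgfr1a*, *fgfr2* and *fgfr4* went from 736 to 1012, from 5205 to 6684 and from 863 to 1276, with mean ratios of 0.34, 0.21 and 0.25. All 6 probes of *fgfr2* lay between 0.12 and 0.40. The ratio of *fgfr1b* was 0.06. The 2 receptors without a kinase domain, *fgfrl1a* and *fgfrl1b*, had ratios of -0.22 and -0.19. The call of *fgfr3* rests on the mean of both probes, since its brighter probe alone had 0.44.

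The sprouty genes encode intracellular inhibitors that Fgf signalling itself induces. Intensities of *spry1*, *spry2* and the brighter probe of *spry4* read 107.1 and 139, 1295 and 1571, and 2289 and 2813, and the mean ratios were 0.13, 0.03 and 0.13. Other Fgf outputs were also near 0 or moderately higher, with *dusp6*, the phosphatase that dampens Erk, at -0.07, *etv5a* at -0.10, *etv5b* at 0.35 and *etv4* at 0.51. Of 15 further Fgf components measured, none was 1.5-fold higher, against 4.0% of all genes. Against 7.9% of all genes, 1 of the 15 was lower, the exchange factor gene *sos1* at -0.66. A single probe of *sos1* carried this, from 115 to 19.1, which was not above background, and its other 3 probes had ratios between -0.07 and 0.16. In both *fgf2* and *sos1*, then, 1 probe was lost from the *miR-132* MO array. The other probes of *sos1* barely moved, whereas those of *fgf2* were too dim to show a large decrease.

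Wnt genes lay mostly near 0, with 24 of 38 above 0, against 48.9% of all genes. In each direction 1 gene was past 1.5-fold, against 4.0% of all genes higher and 7.9% lower. No ligand passed. The nearest was *wnt5b*, a non-canonical ligand of tail and cartilage morphogenesis, which went from 266 to 478 and from 41.0 to 70.6, with ratios of 0.60 and 0.54 and a mean of 0.57. Its relative *wnt5a* had 0.45. The canonical ligands *wnt3* and *wnt3a* read 195 and 255, and 81.7 and 69.3, with ratios of 0.14 and -0.48. For *wnt7aa* the probe read 47.1 and 54.7, a ratio of -0.03, and for *wnt11* the brighter probe read 3455 and 3311, with a mean ratio of -0.29. The median of the 17 ligands was 0.14, and it was below 0, at -0.03, with normexp background correction only.

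Among the 11 Frizzled receptors with a ratio, *fzd5*, a receptor of the eye field and the retina, went from 265 to 471 on its probe. The ratio, 0.5874, lay at the 1.5-fold line itself and fell short of it under 2 of 9 processings. The used probe of *fzd3b* went from 34.5 to 24.8, a ratio of -0.72 or 1.65-fold lower. Its intensity was close to the dim limit of the *miR-132* MO array. A second probe, above background on neither array, went the other way, from 7.50 to 11.1. With that probe included, *fzd3b* had a ratio of -0.20. Its duplicate *fzd3a* had probes at 237 and 317, and 42.6 and 71.7, with a mean ratio of 0.34, and Frizzled 3 is known for axon guidance. The brighter probe of *fzd7a* read 4083 and 5297 and the mean ratio was 0.22, and the 5 probes of *fzd7b* lay between 0.03 and 0.60. The remaining receptors, *fzd2*, *fzd6*, *fzd8a*, *fzd8b*, *fzd9b* and *fzd10*, lay between -0.17 and 0.32.

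The Wnt inhibitors gave a median of 0.01 over 10 genes. The scaffold genes *axin1* and *axin2*, whose products degrade β-catenin and of which *axin2* is a standard Wnt output, read 3054 and 3888, and 2559 and 2906, on their brightest probes, with mean ratios of 0.09 and 0.03. The dickkopf genes, grouped as inhibitors by name, all lay below 0, although *dkk2* is a bound that by its rule could not lie above 0. For *dkk1b* the brighter probe read 526 and 576 with a mean ratio of -0.02, for *dkk3b* the probe read 143 and 139 with a ratio of -0.29, *dkk3a* had -0.28 and *dkk2* a bound of -0.35. Secreted Frizzled-related genes, which bind Wnt proteins, ranged from -0.01 for *sfrp1a* (946 and 1115) to 0.45 for *sfrp1b*.

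Of 33 Wnt components outside these families, 3 were at least 1.5-fold higher and 1 was lower, against 4.0% and 7.9% of all genes. Those that were higher included 2 genes of Wnt secretion. For *wls*, the carrier of Wnt proteins to the cell surface, 2 probes went from 820 to 2216 and from 48.3 to 130, with ratios of 1.19 and 1.18, while the brightest went from 4651 to 5767, a ratio of 0.07. For *porcn*, the acyltransferase of Wnt proteins, the probe was above background in *miR-132* morphants only, at 16.9. Against the dim limit of the Ctrl MO array it was 1.99-fold higher, although both readings lay at the dim limits. The planar polarity gene *vangl2* went from 242 to 457, a ratio of 0.67, and another polarity gene, *prickle2a*, went from 33.2 to 23.4, a ratio of -0.75. Transcriptional partners and outputs stayed within 1.5-fold, with *ctnnb1* at 0.08, *lef1* at 0.29, *tcf7l2* at -0.14, *sp5a* at -0.27 and *nkd1* at 0.26.

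Bmp genes had the narrowest range between lowest and highest, from -0.46 for *bmp16* to 0.51 for *nog3*. Their quartiles, -0.13 and 0.21, were no closer together than those of the Wnt genes, -0.02 and 0.28. Among the ligands, *bmp2b*, which patterns the ventral embryo, read 205 and 214 on its brighter probe, with a mean ratio of -0.15, and *bmp4* read 770.5 and 938 on its brightest, with a mean of 0.21. The 3 *bmp4* probes gave 0.04, 0.17 and 0.41, the dimmest probe highest. The same held for *bmp5*, with -0.20 and -0.19 on its brighter probes and 0.63 on one that read 18.6 and 34.0. The ligand *bmp7a*, partner of *bmp2b* in the early embryo, was above background on none of its 3 probes, with intensities of at most 6.95. The genes of the Bmp name that are no ligands, the protease gene *bmp1b* and the kinase gene *bmp2k*, had ratios of -0.40 and -0.14.

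The type I receptors *bmpr1aa* and *bmpr1ba* read 2810 and 3433, and 468 and 527, on their brightest probes, with mean ratios of 0.03 and -0.10, and the type II receptors *bmpr2a* and *bmpr2b* (268 and 388) had ratios of 0.22 and 0.29. The noggin genes encode secreted proteins that bind Bmp ligands. The probe of *nog3*, known from cartilage, went from 546 to 922, a ratio of 0.51 or 1.43-fold, and *nog5* had 0.34. The brighter probes of *nog1* and *nog2* read 460 and 521, and 192 and 245, with mean ratios of 0.02 and 0.05. Of 29 other Bmp components, none passed 1.5-fold in either direction, against 4.0% higher and 7.9% lower over all genes. Of these components 21 lay above 0, against 48.9% of all genes. The inhibitory Smad genes, which Bmp signalling induces, were among the highest, with *smad7* at 0.58, *smad6b* at 0.50 and *smad6a* at 0.40. The id genes, the usual Bmp readouts, lay between -0.03 for *id2a* and 0.38 for *id3*.

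Zebrafish keep many of these genes as duplicates from the fish genome duplication. Pairs were formed by a final a or b in the name alone, and 21 had a ratio for both genes. Such a pair need not come from that duplication, as with *wnt5a* and *wnt5b* or *wnt9a* and *wnt9b*, which are counted here. In 14 pairs both genes lay on the same side of 0 and in 7 on opposite sides, with a median difference of 0.21. The difference exceeded 1.5-fold in *fzd3a* and *fzd3b* (1.06) and in *fgf6a* and *fgf6b* (1.28), of which the copy *fgf6b* is a bound. The next were *jag1a* and *jag1b* (0.51) and *fzd8a* and *fzd8b* (0.49). The nearest pairs were *dkk3a* and *dkk3b* (-0.28 and -0.29) and *fgf18a* and *fgf18b* (-0.31 and -0.30), of which *fgf18b* is a bound. In the gene order of GRCz12tu, 14 pairs of pathway genes with a ratio had at most 3 other genes between them, of which 9 were on the same side of 0 and 5 on opposite sides. The same-side pairs include *fgf23* and *fgf6b*, both bounds that could only lie below 0, and her4 copies, which a probe may read together. The adjacent genes *her8.2* and *her13* had 0.37 and 0.46, the adjacent genes *wnt3a* and *wnt9a* had -0.48 and 0.23, and *fgf3*, *fgf4* and *fgf19*, which follow each other, had -0.25, 0.05 and -0.39.

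Probes of a gene did not always give 1 value. Of 65 pathway genes with more than 1 probe, 42 had all probes on the same side of 0, and the median range between probes was 0.21. The range exceeded 1.5-fold in 6, which were *fgf2*, *notch3*, *bmp2k*, *bmp5*, *fgfrl1b* and *hey1*. In 58 genes with several probes above background on both arrays, the dimmest probe had a higher ratio than the brightest in 35, which is 60.3%. Over all 6776 genes of this kind the share was 63.4% and the median difference was 0.09, so among the probes kept the dimmest tended to have the higher ratio. Dim probes that fell under the limit of the *miR-132* MO array (16.8, against 7.17 for Ctrl MO) were left out, which by itself favours this direction. The share was 52.9% in the 17 Notch genes, 46.7% in the 15 Fgf genes, 63.6% in the 11 Bmp genes and 80.0% in the 15 Wnt genes. The median ratio of the brightest probes of the Notch genes was 0.29, against -0.02 for all genes.

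**Figure D4:**
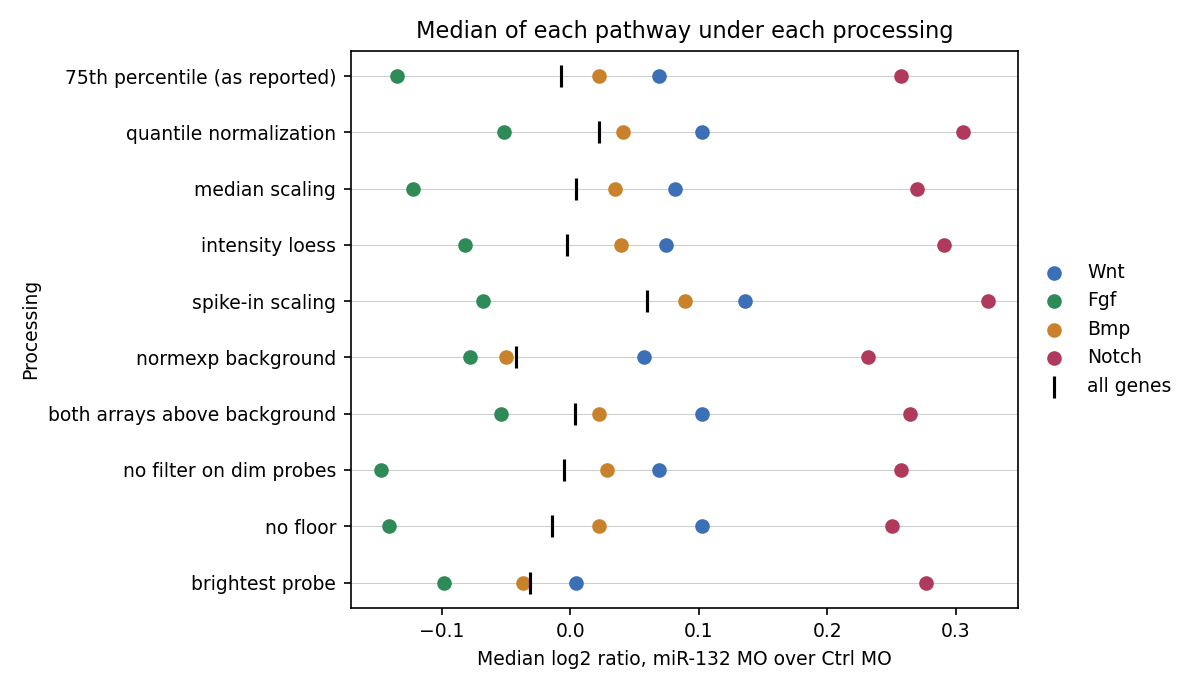
Median log2 ratio (horizontal axis) of the Wnt, Fgf, Bmp and Notch genes under 10 processings (vertical axis), with the median of all genes as a black tick. The Notch median lies between 0.23 and 0.32 and is the highest in each row, and the Fgf median, between -0.15 and -0.05, is the lowest in each.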

How the data were processed

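For both arrays the authors deposited spot intensities written by Agilent Feature Extraction 10.7 (the version is from the submitters' processing notes), background-subtracted and not normalized between arrays. A second deposited copy of these values and a table of the authors' own normalized values and fold changes were not used. Log2 processed intensity was averaged over the spots of a probe and the 75th percentile of the array was subtracted. Of 43603 probes, 9 flagged as outliers were left out and 38532 were well above background on at least 1 array. Probes were named through RefSeq accessions, compared without versions, and the GRCz12tu gene table, and 25069 probes matched 12858 genes, 12857 after the flagged probes were left out. The arrays were annotated on another build, so no coordinates are given.

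Where 1 array was below background, its value was the higher of its own reading and the lowest value above background on that array. Where this value exceeded the reading of the other array, a bound was set to no difference and a reading of its own was kept. The means of *wnt11f2*, *wnt10a*, *fgf2* and *bmp2k* therefore include such readings. A gene with only such probes has no ratio (225 genes). Genes are the mean of their probes. The members, gene lists and alternatives were chosen with earlier results of these data known. Named in full are genes past 1.5-fold and a list of core members, and the rest are given by range. Components and related factors outside the name families came from a list of the 4 pathways. Alternatives were median scaling, scaling to 226 spike-in spots, an intensity loess of span 0.3, quantile normalization, normexp (offset 50, on the median signal, since no mean signal is held), other filters, the brightest probe, a 2-fold threshold, every probe, and single probes. The code was tested on simulated data. No sequence is printed, since the tables used hold none, and promoter motifs were not searched. Tools were R 4.3.3 with limma 3.58.1, and Python 3.11.15 with matplotlib 3.10.9, numpy 2.4.6, pandas 2.3.3 and statsmodels 0.14.6.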

Additional observations from a re-analysis of the deposited data

How the results depend on the processing

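The pathway medians moved by less than the spot SD (0.10) under the 9 other processings, with ranges of 0.0043 to 0.14 for Wnt, -0.15 to -0.05 for Fgf, -0.05 to 0.09 for Bmp and 0.23 to 0.32 for Notch. Spike-in scaling shifted the median of all genes most, by 0.07. Of 60 such summary values, 52 stayed within the spot SD or within 1.5 times the count, and 8 counts of genes past the fold moved by over 1.5 times. The 7 higher genes became 3 with normexp (*dlb*, *fgfr3* and *her12*), 12 with no filter on dim probes and 0 at 2-fold. Counted one by one, 16 probes were higher. The 4 lower genes became 2 with normexp (*fgf2* and *fgf6a*), 2 with both arrays above background (*fgf6a* and *fzd3b*), 2 at 2-fold and 7 with no floor, an alternative chosen after seeing the data. Some of these moves follow by construction. A higher threshold passes fewer genes, and requiring both arrays above background leaves out *fgf6b* and the probe that carried *fgf2*. With no floor, a bound gives way to the lower reading of the array itself, and *bmpr1bb*, *dkk2* and *fgf17* joined the lower genes. The cause of the other moves was not tested. All genes moved too: 1.91% were higher and 4.66% lower with normexp, and 5.93% and 9.66% with no filter. The count of higher Notch genes lay between 2 and 8, and none was lower under any processing. Of 494 ratios of 55 named genes, 438 stayed within the spot SD and none of the genes past 1.5-fold changed sign. Some genes nearer 0 did change sign, among them *her6*, *her9*, *hey1*, *notch3*, *dlc*, *dll4* and *bmp4*. The most dependent were *fgf2* (-4.57 to -0.02), *fgf6b* (-1.31 to -0.37), *fgf6a* (-2.10 to -1.29), *fzd3b* (-0.72 to -0.20) and *her3* (0.23 to 0.75), whereas *dlb*, *her12* and *fgf6a* passed 1.5-fold in all 9. Naming by accession only was not run, since the files hold no gene names. No paired analysis was possible because there was only 1 array a group. Depth is limited on the *miR-132* MO array, where readings under 16.8 were not above background, and by the single array per group.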

Other observations

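Outside the signalling genes, the tissue markers checked on the same arrays were uneven. The liver gene *fabp10a*, a fatty acid binding protein of hepatocytes, had a ratio of -3.68, which is 12.8-fold lower, on probes that were above background on both arrays. The erythroid gene *alas2*, the entry enzyme of heme synthesis in red cells, was 2.05-fold higher, while the globin genes *hbae1.1* and *hbae3* had ratios of 0.15 and -0.0039. The keratin genes *krt4* and *krt5* were 1.58-fold and 1.71-fold higher, with probes of *krt4* between -0.15 and 1.17. The endothelial markers *kdrl*, *cdh5* and *fli1* lay between -0.32 and 0.06. Their part in the ratios of the signalling genes was not tested.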
